A study of Mus musculus with 15 samples.

Results

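The genes described here encode the subcortical maternal complex and other maternal effect factors of the mouse oocyte. The 10 listed symbols, Nlrp5, Ooep, Tle6, Khdc3, Padi6, Zbed3, Npm2, Dppa3, Zar1 and Filia, stand for 9 genes, because Filia is an older symbol of Khdc3. Their probe sets were those that the platform annotation assigns to exactly 1 of these symbols. This gave 11 probe sets for 8 genes, of 45101 probe sets and 18194 singly named genes on the arrays. Zbed3 had 4 probe sets and each of the other 7 genes had 1. Npm2 had no probe set of its symbol alone in the annotation used and was not analysed here. The rule used no measured value, but the member genes were chosen with earlier results of these data known.

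Maternal effect genes are transcribed while the oocyte grows, and their products serve the embryo before its own genome takes over. The subcortical maternal complex is an assembly of oocyte proteins beneath the cell cortex, in which NLRP5 (also called MATER), OOEP (FLOPED), TLE6 and KHDC3 (FILIA) are core components, and mouse embryos from oocytes without NLRP5, OOEP or TLE6 arrest at early cleavage. PADI6 and ZBED3 associate with it, while ZAR1 and DPPA3 (STELLA) act apart from it, ZAR1 as a binder of maternal messenger RNAs and DPPA3 as a protector of maternal DNA methylation. During meiotic maturation the oocyte transcribes little, and maternal messengers are stored, translated, deadenylated or degraded.

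Gene expression was measured on Affymetrix arrays of pooled oocytes from B6D2F1 hybrid females, in 6 groups with 15 arrays in all. Adult females aged 7 to 8 weeks gave oocytes matured in vivo to metaphase II (MII, the stage of ovulation; n = 3), MII oocytes matured in vitro (n = 2) and immature germinal vesicle oocytes (GV, with the intact nucleus of meiotic arrest; n = 2). At day 26 of age (d26) MII oocytes were matured in vivo (n = 2) or in vitro (n = 3), and at day 20 (d20) they were matured only in vitro (n = 3). All females had received pregnant mare serum gonadotropin (PMSG), and each array held the amplified poly(A) RNA of a pool of 150 oocytes. GV oocytes were taken 48 h after PMSG, in vitro maturation lasted 16 h, and in vivo maturation was triggered with human chorionic gonadotropin 48 h after PMSG. The somatic cumulus cells that surround an oocyte were stripped with hyaluronidase. GV oocytes came from adults alone, so no d20 or d26 MII group had a GV group of its own age. Whether pools of a group came from different animals is not stated, and the p-values therefore reflect a spread between samples that may be technical. RNA was captured by its poly(A) tail, so a loss of transcript and a shortening of its tail cannot be told apart here, and neither can fewer contributing cells and less RNA per cell.

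Promoters are shown for the member genes whose RefSeq window (GRCm38.p6) ends at the gene's outermost annotated start. Of these, Ooep, Nlrp5 and Padi6 were lower at MII in both comparisons with GV. So was Tle6, which had no such window. A link between these sequences and the differences from GV was not tested. The Zbed3 window is shown as the remaining one of that kind and serves as no contrast, since its brightest probe set lies near the top of each array. Of the 8 measured genes, 7 had a promoter window and 4 had one at the outermost start. Each sequence runs 5′ to 3′ over the 250 bases before the start, and capitals mark every match to the E-box CANNTG, searched on both strands (it reads the same on each), the element bound by basic helix-loop-helix factors such as FIGLA, the oocyte factor of the zona pellucida genes.
Ooep promoter, chr9:78378589-78378838, minus strand: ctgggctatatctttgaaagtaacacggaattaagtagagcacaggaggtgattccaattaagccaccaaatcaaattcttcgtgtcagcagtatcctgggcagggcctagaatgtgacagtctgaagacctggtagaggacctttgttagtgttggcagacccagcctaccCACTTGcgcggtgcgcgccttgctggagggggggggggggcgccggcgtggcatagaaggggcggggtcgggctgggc
Nlrp5 promoter, chr7:23385639-23385888, plus strand: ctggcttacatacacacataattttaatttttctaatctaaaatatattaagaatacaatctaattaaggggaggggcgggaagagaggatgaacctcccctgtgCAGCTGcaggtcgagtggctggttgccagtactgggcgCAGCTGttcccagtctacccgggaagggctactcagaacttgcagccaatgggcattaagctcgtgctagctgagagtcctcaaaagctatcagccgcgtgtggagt
Padi6 promoter, chr4:140742644-140742893, minus strand: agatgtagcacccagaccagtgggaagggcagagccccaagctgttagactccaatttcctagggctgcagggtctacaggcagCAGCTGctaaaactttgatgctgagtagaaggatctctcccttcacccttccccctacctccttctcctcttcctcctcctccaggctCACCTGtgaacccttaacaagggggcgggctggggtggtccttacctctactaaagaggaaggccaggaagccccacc
Zbed3 promoter, chr13:95323355-95323604, plus strand: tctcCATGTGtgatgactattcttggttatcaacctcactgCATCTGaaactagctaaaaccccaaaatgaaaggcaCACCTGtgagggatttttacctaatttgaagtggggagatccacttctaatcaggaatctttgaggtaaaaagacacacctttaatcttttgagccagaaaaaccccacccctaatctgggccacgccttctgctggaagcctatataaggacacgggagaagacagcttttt

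The Ooep window held 1 E-box, 78 bases before the start, Nlrp5 held 2 at 145 and 107 bases, Padi6 held 2 at 166 and 78 bases, and Zbed3 held 3 at 246, 209 and 173 bases. Of 32851 windows of the same length, 66.2% held at least 1 CANNTG, so its presence in these windows was the common case. TAATTG, a core element of the oocyte homeobox factor NOBOX, was searched on both strands. It occurred in 1 of the 4 windows, in Ooep at 195 bases before the start on the opposite strand, away from the E-box, and 7.17% of all windows held it. These matches describe letters, not binding.

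Arrays differed in overall brightness. On 4 dim arrays, the number of probe sets with a deposited intensity over 200 was 2637 to 3061, against 4903 to 9842 on the other 11, and the GV arrays were the brightest. The dim arrays were replicate 1 of adult in vivo MII, replicate 2 of adult in vitro MII, and replicates 2 and 3 of d26 in vitro MII. Levels are therefore given below as deposited intensities and as log2 intensities after quantile normalization, and a difference is always one of normalized log2 means unless another scale is named. All 7 oocyte markers had a probe set, and their summed deposited intensity was 13616 to 35946 in adult in vivo MII arrays and 7805 to 25436 in adult in vitro MII arrays, against 56878 to 57531 in GV arrays. The 8 measured cumulus and granulosa markers summed to 47.2 to 209 over the MII arrays and 202 to 249 in GV arrays, with no single value above 64.4.

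The first question was how member transcripts of adult oocytes differed between MII and GV. The core components Nlrp5, Ooep, Tle6 and Khdc3 and the associated Padi6 were lower at MII after maturation in vivo, by 3.15-fold for Nlrp5, 9.04-fold for Ooep, 8.67-fold for Tle6, 8.95-fold for Khdc3 and 46.0-fold for Padi6, the last 3 with smaller values when the dim arrays were left out, as given below. After maturation in vitro Nlrp5, Ooep, Tle6 and Padi6 were lower and Khdc3 did not pass. Relative to the median of all probe sets, the fall of Nlrp5 was smaller after median scaling, as given below. Dppa3 and Zar1 did not pass in either comparison, and the probe sets of Zbed3 disagreed. Of the 11 member probe sets, 10 passed the filter on low signal. Among these 10, limma called 5 lower and 1 higher after maturation in vivo, where 11.1% of all 22519 tested probe sets were lower and 15.7% higher. After maturation in vitro it called 4 lower and 1 higher, where 11.7% of all tested were lower and 16% higher. In either direction, 26.8% of all tested passed in vivo and 27.7% in vitro. The median member difference was -1.33 in vivo and -1.42 in vitro, beside 0.24 and 0.13 over all probe sets tested. Both comparisons use the same 2 GV arrays, so their likeness is not independent evidence. Leukocyte markers also moved in the in vivo comparison, with summed deposited intensities of 243 to 430 in adult in vivo arrays, against 72.4 to 82.0 in GV arrays, and of 3 that were tested 1 was higher. Of 3 oviduct markers 1 was tested and was higher in vivo (3.63), with sums of 90.1 to 613 in adult in vivo arrays, against 84.7 to 103 in GV arrays. In vitro no leukocyte or oviduct marker was called, and 1 of 6 tested cumulus and granulosa markers was higher. The part of these markers in the member values was not tested.

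**Figure D1:**
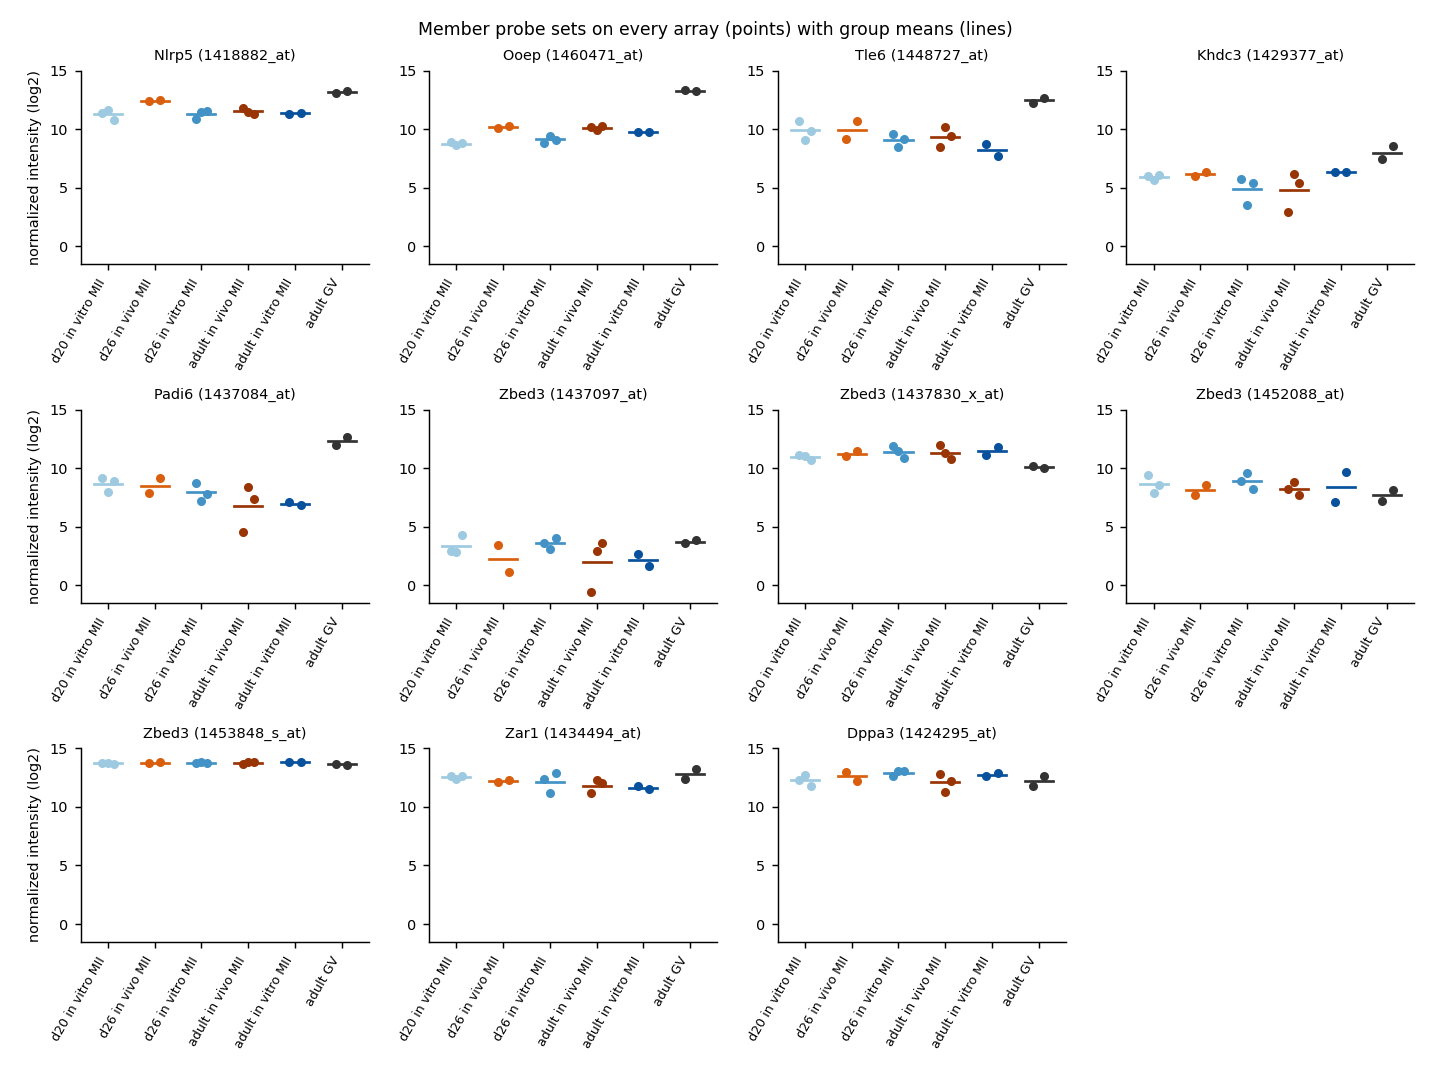
Normalized log2 intensity (vertical axis) of each of the 11 member probe sets in the 6 groups, with 1 point per array and a line at each group mean. Nlrp5, Ooep, Tle6, Khdc3 and Padi6 lay lower on all 13 MII arrays than on both GV arrays, whereas the MII and GV arrays of Zar1 and Dppa3 overlapped. The share of all probe sets that lay lower in this way was not counted.

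Nlrp5, which encodes an NLR family protein at the core of the complex, had deposited intensities of 2065, 4479.9 and 4062 in adult in vivo MII oocytes and 2417 and 1212 in adult in vitro MII oocytes, against 11883 and 11530 in GV oocytes. Every adult MII array lay below both GV arrays, by a wide margin. Normalized log2 levels averaged 11.53 ± 0.29 after maturation in vivo (SD, n = 3) and 11.36 ± 0.06 after maturation in vitro (SD, n = 2), against 13.19 ± 0.10 in GV oocytes (SD, n = 2). The difference was -1.66 after maturation in vivo (SE 0.28, 95% interval -2.25 to -1.07, limma adjusted p = 0.000476) and -1.83 after maturation in vitro (SE 0.30, adjusted p = 0.000469).

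Ooep, which encodes a KH-like domain protein that joins the core of the complex, had deposited intensities of 494, 1552 and 2076 in adult in vivo MII oocytes and 799.9 and 285 in adult in vitro MII oocytes, against 13082 and 11638 in GV oocytes. The GV values were nearly equal and stood far above every MII array. After normalization the adult groups were tight, at 10.13 ± 0.19 for in vivo oocytes (SD, n = 3) and 9.77 ± 0.03 for in vitro oocytes (SD, n = 2), against 13.30 ± 0.02 in GV oocytes (SD, n = 2). Ooep fell by 3.18 in vivo (SE 0.24, 95% interval -3.69 to -2.66, limma adjusted p = 2.04e-06) and fell by 3.53 in vitro (SE 0.26, 95% interval -4.09 to -2.97, adjusted p = 2.17e-06).

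Tle6, a relative of the Groucho co-repressors and a core subunit of the complex, had deposited intensities of 123, 1890.1 and 1102 in adult in vivo MII oocytes and 361 and 59.2 in adult in vitro MII oocytes, against 7558 and 8520.2 in GV oocytes. The lowest value of each MII group came from its dim array, and no MII value approached the GV values. Tle6 fell by 3.12 in vivo (SE 0.58, 95% interval -4.36 to -1.87, limma adjusted p = 0.00109) and fell by 4.25 in vitro (SE 0.64, 95% interval -5.61 to -2.88, adjusted p = 0.000245). Without the 4 dim arrays the differences of Tle6 were -2.68 in vivo and -3.75 in vitro (adjusted p = 0.00291 and 0.00173). Without these arrays the adult in vitro group is 1 array, here and for the genes below, and that array is assumed to vary like the other groups.

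Khdc3, a KH domain protein that guards genome stability in the mouse embryo, had deposited intensities of 4.44, 114 and 56.6 in adult in vivo MII oocytes and 65.6 and 24.5 in adult in vitro MII oocytes, against 584 and 993 in GV oocytes. The MII values were dim, and that of adult in vivo replicate 1, a dim array, fell below the filter level of 3.07 at a normalized 2.89. Khdc3 fell by 3.16 in vivo (SE 0.83, 95% interval -4.93 to -1.40, limma adjusted p = 0.00998) and differed by -2.19 without adult in vivo replicate 1 (adjusted p = 0.0222), but did not pass without GV replicate 2 (-2.59, adjusted p = 0.133) or when only the 5 arrays of the comparison were fitted (adjusted p = 0.0575). The in vitro difference was -1.65 (SE 0.90, 95% interval -3.58 to 0.28, adjusted p = 0.205). That interval includes the in vivo value, and the direct comparison of both MII groups is given below. On the deposited scale the in vitro difference passed (-4.25, adjusted p = 0.0217), as it did after median scaling (-2.84, adjusted p = 0.0311). With the dim arrays left out, and thus 1 in vitro array, it was -1.61 (adjusted p = 0.033), and without GV replicate 2 it was -1.08 (adjusted p = 0.617).

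Padi6, a member of the peptidylarginine deiminase family needed for the cytoplasmic lattices of the mouse oocyte, had deposited intensities of 13.6, 549.9 and 254 in adult in vivo MII oocytes and 106 and 34.1 in adult in vitro MII oocytes, against 6549 and 8245 in GV oocytes. Padi6 showed the widest gap between MII and GV of the 10 tested member probe sets in both comparisons, and also a wide spread among the in vivo arrays. Normalized levels were 6.78 ± 1.97 for in vivo oocytes (SD, n = 3) and 6.97 ± 0.14 for in vitro oocytes (SD, n = 2), against 12.30 ± 0.45 in GV oocytes (SD, n = 2). Padi6 fell by 5.52 in vivo (SE 0.82, 95% interval -7.28 to -3.77, limma adjusted p = 0.000214) and fell by 5.33 in vitro (SE 0.90, 95% interval -7.26 to -3.41, adjusted p = 0.000548). Without the 4 dim arrays these differences of Padi6 were -4.43 and -5.23.

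Zbed3, a zinc finger protein found with the complex in mouse oocytes, was read by 4 probe sets that did not behave alike. The brightest, 1453848_s_at, gave 7120.4 to 20547 over the 13 MII arrays, against 15220 and 13598 in GV oocytes, and on no array were more than 12 probe sets brighter. It lay near the top of each array's intensities, where quantile normalization holds its level almost fixed. Its differences of 0.15 in vivo and 0.21 in vitro (limma adjusted p = 0.447 and 0.315) therefore say little about a change. Under the 10 alternative settings listed below, its in vivo difference ran from 0.12 to 0.89 and passed under none. Its in vitro difference ran from -0.11 to 1.30 under them and passed under 1 (limma adjusted p = 0.0115). The probe set 1437830_x_at gave 2285, 3718 and 2860.4 in adult in vivo MII oocytes and 2061 and 1750.1 in adult in vitro MII oocytes, against 2484 and 2003 in GV oocytes.

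As deposited, the MII and GV values of 1437830_x_at overlapped, whereas after normalization both MII groups lay above GV. Its normalized difference was 1.20 in vivo (SE 0.36, 95% interval 0.43 to 1.98, adjusted p = 0.0225) and 1.34 in vitro (SE 0.40, adjusted p = 0.0205). This call on the Zbed3 probe set did not hold on the deposited scale, where the differences were 0.38 and -0.23 (adjusted p = 0.806 and 0.815). In vivo it also ended without adult in vivo replicate 1 (0.89, adjusted p = 0.0765), GV replicate 1 (1.30, adjusted p = 0.0822) or GV replicate 2 (1.11, adjusted p = 0.149), and in vitro without adult in vitro replicate 2 (0.97, adjusted p = 0.188) or either GV array (adjusted p = 0.0667 and 0.118). It ended without an intensity trend in both comparisons (adjusted p = 0.0712 in vivo and 0.0654 in vitro), and in vivo when only the 5 arrays of the comparison were fitted (adjusted p = 0.0643). The other probe sets of Zbed3 were 1452088_at, with differences of 0.56 and 0.71 that did not pass (adjusted p = 0.625 and 0.543), and 1437097_at, which averaged below the filter and was not tested. The in vitro difference of 1452088_at took opposite signs without each in vitro array, 2.03 without replicate 1 (adjusted p = 0.0485) and -0.62 without replicate 2, each with 1 array left in that group. The annotation names 1 gene for all 4, and which of them reads the Zbed3 transcript best was not tested.

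**Figure D2:**
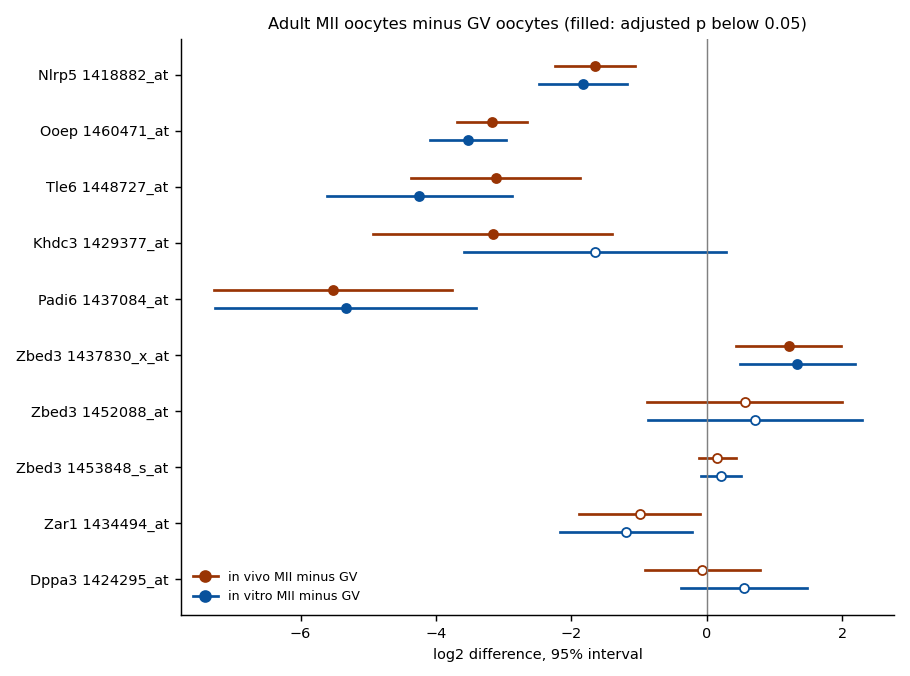
Differences in normalized log2 intensity between adult MII and GV oocytes for the 10 tested member probe sets (horizontal axis), with 95% intervals, after maturation in vivo and in vitro against the same 2 GV arrays. Filled points have a limma adjusted p below 0.05, and Padi6 lies farthest left at -5.52 and -5.33.

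Zar1, the RNA-binding factor, had deposited intensities of 1091, 7425 and 6512 in adult in vivo MII oocytes and 3361 and 1309 in adult in vitro MII oocytes, against 8057 and 11373 in GV oocytes. All 5 adult MII values lay below both GV values, but by little on the brighter arrays. The difference was -0.996 in vivo (SE 0.42, limma adjusted p = 0.0967) and -1.20 in vitro (SE 0.46, adjusted p = 0.0666), so neither passed. Zar1 passed in vitro under 6 of the alternatives, of which the one without the 4 dim arrays rests on 1 in vitro array (-1.07, adjusted p = 0.0207) and another left out d26 in vitro replicate 2 (adjusted p = 0.0179). It passed in vivo under 2, without d26 in vitro replicate 2 (adjusted p = 0.0293) and with array weights (-0.79, adjusted p = 0.0157). Without GV replicate 2 the differences of Zar1 were -0.57 in vivo and -0.77 in vitro, and without adult in vivo replicate 1 the in vivo one was -0.66.

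Dppa3, the DNA methylation protector, had deposited intensities of 4909, 3893 and 7474 in adult in vivo MII oocytes and 6207 and 4669.9 in adult in vitro MII oocytes, against 5637.5 and 8200.4 in GV oocytes. MII and GV values overlapped in both comparisons. The difference was -0.07 in vivo (SE 0.40, limma adjusted p = 0.929) and 0.55 in vitro (SE 0.44, adjusted p = 0.406). Its in vivo interval ran to 0.78 and its in vitro interval to 1.48, so the tests do not show that Dppa3 was equal at both stages.

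Because the scale between arrays is uncertain, each member was also set against Dppa3 on the same array, as the log2 ratio of deposited intensities, which a constant factor per array leaves unchanged (quantile normalization, which is not such a factor, does alter it). The level of such a ratio carries no meaning between different probe sets, only its change across arrays does. For Nlrp5 the ratio was -1.25, 0.20 and -0.88 in adult in vivo MII oocytes and -1.36 and -1.95 in adult in vitro MII oocytes, against 1.08 and 0.49 in GV oocytes. For Ooep it was -3.31, -1.33 and -1.85 in vivo and -2.96 and -4.03 in vitro, against 1.21 and 0.51 in GV oocytes. The ratios of both genes were lower on every adult MII array than on either GV array.

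The ratio of Tle6 ranged from -6.30 to -1.04 over all 13 MII arrays, against 0.42 and 0.06 in GV oocytes. Over the same arrays that of Padi6 ranged from -8.50 to -2.70, against 0.22 and 0.01, and that of Khdc3 from -10.11 to -5.09, against -3.27 and -3.05. None of these MII ranges reached the GV values. A lower ratio to Dppa3 at MII is not particular to these members. As deposited, the median adult difference from GV of all tested probe sets was -0.98 in vivo and -1.94 in vitro, the latter beside -0.34 for Dppa3. How many of all probe sets had a lower ratio on every MII array was not counted. The ratio of Zar1 ranged from -2.47 to 0.93 over the MII arrays and included the GV values of 0.47 and 0.52. Tle6, Padi6, Khdc3 and Zar1 each had their lowest ratio on a dim array. So had Nlrp5 (-2.16) and Ooep (-4.67), both on d26 in vitro replicate 2. In adult in vivo oocytes the Padi6 ratio was -8.50 on the dim array, against -2.82 and -4.88 on the others. The ratio to Dppa3 thus did not remove the difference between dim and other arrays.

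**Figure D3:**
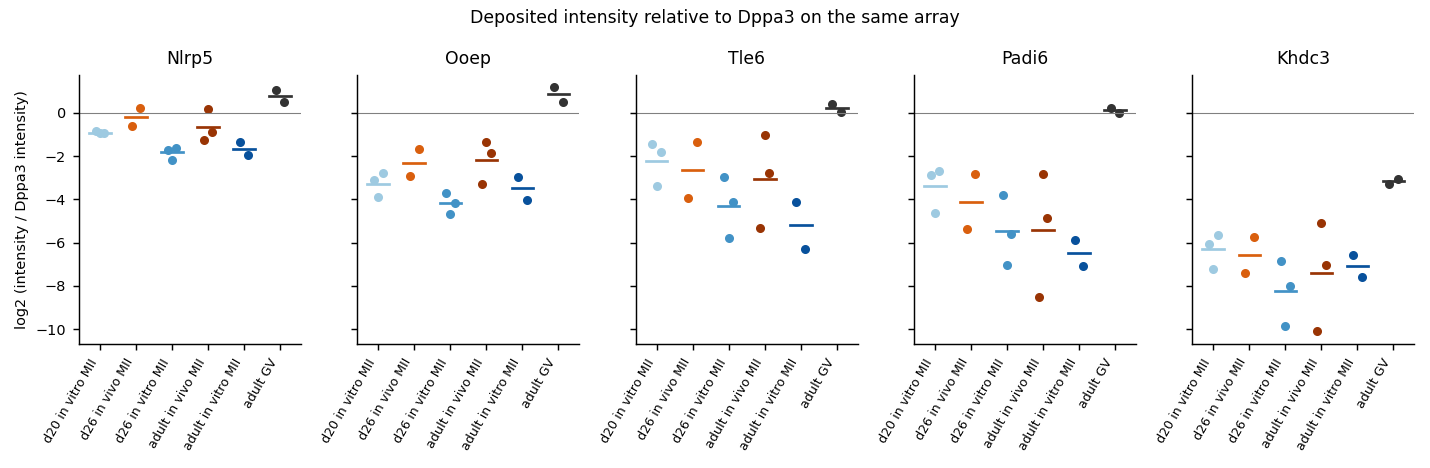
Log2 ratio of the deposited intensity of Nlrp5, Ooep, Tle6, Padi6 and Khdc3 to that of Dppa3 on the same array (vertical axis), with 1 point per array and lines at the means of the 6 groups. Every MII point lies below both GV points of its gene, with the Nlrp5 ratio reaching 0.21 at MII against 0.49 in the lower GV array. The share of all probe sets with such a separation was not counted.

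The scaling moved the middle of all tested probe sets, so member differences are to be read beside it. In vivo the median of all probe sets was 0.24 after quantile normalization, -0.98 as deposited and -0.21 after median scaling. In vitro it was 0.13, -1.94 and -0.53. As deposited, 0.656% of all calls in vivo and 0.176% in vitro were in the higher direction, against 58.7% and 57.7% after quantile normalization and 23.7% and 22.7% after median scaling. Nlrp5, Ooep, Tle6 and Padi6 were called lower in both comparisons under all 3 scalings. As deposited, Ooep differed by -3.40 in vivo and -4.69 in vitro, and Padi6 by -5.89 and -6.93. Nlrp5 differed by -1.66 in vivo and -1.83 in vitro after quantile normalization, beside medians of 0.24 and 0.13. After median scaling it differed by -1.03 and -1.36, beside medians of -0.21 and -0.53. As deposited its in vitro difference was -2.77, beside a median of -1.94. Relative to the median, its fall was thus smaller under these other scalings.

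**Figure D4:**
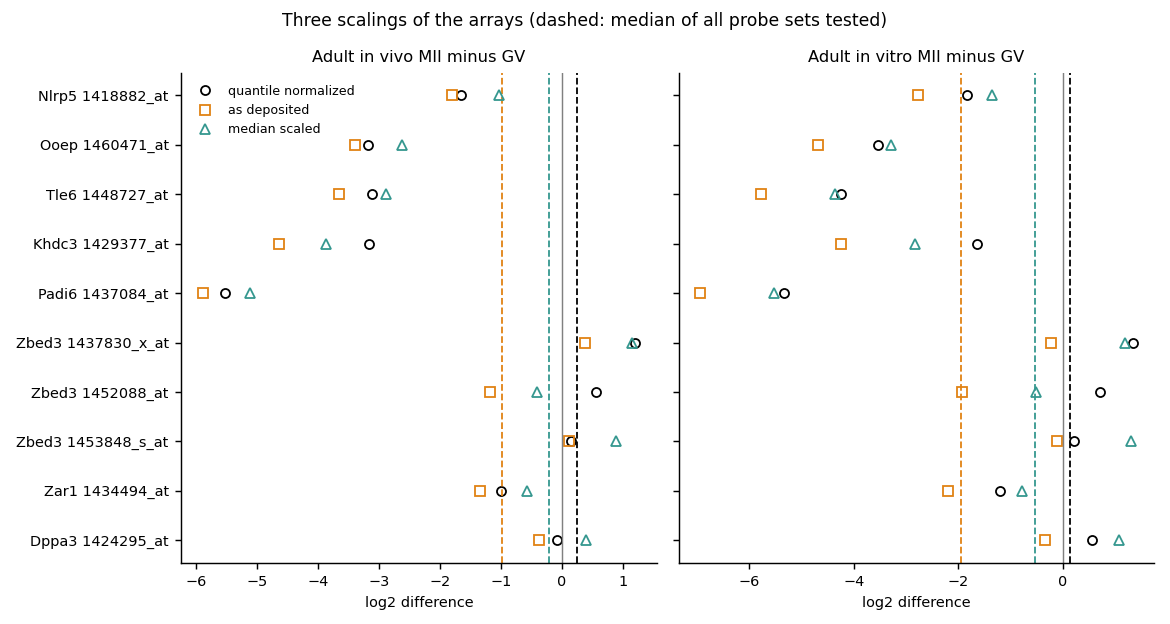
Log2 differences between adult MII and GV oocytes (horizontal axis) for the 10 tested member probe sets under 3 scalings of the arrays, with dashed lines at the median of all tested probe sets under each. Ooep, Tle6 and Padi6 lie left of all 3 medians by a wide margin in both panels, and Zbed3 1452088_at moves between 0.71 and -1.94 in the in vitro panel.

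Other maternal effect genes gave a measure of how common such falls were among genes of like role. A list of 38 further genes held 35 that were tested, each by its brightest probe set. In adult in vivo MII oocytes against GV, 9 were lower, 7 higher and 19 did not pass, with a median difference of -0.03. The larger falls were those of Uchl1, a ubiquitin hydrolase (-3.45, limma adjusted p = 2.21e-05), and Ube2a, a ubiquitin-conjugating enzyme (-3.03, adjusted p = 8.80e-05), and the larger rises those of Dnmt3a, a de novo DNA methyltransferase (2.44, adjusted p = 0.00012), and the transcription factor Sox2 (2.22, adjusted p = 0.0042). In adult in vitro MII oocytes 8 were lower, 7 higher and 20 did not pass, with a median of -0.47. Uchl1 (-3.63) and Ube2a (-3.17) were again lower, and Sox2 (3.06) and the spliceosome-associated Bcas2 (3.02) were higher, with adjusted p-values of 3.66e-05, 0.000138, 0.000865 and 0.00309 in that order. Beside these lists, 4 of the 7 oocyte markers were lower at MII in each comparison and none was higher.

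Over all 15 arrays the order of group means differed between members. Nlrp5 averaged 13.19 in GV, 12.44 in d26 in vivo, 11.53 in adult in vivo, 11.36 in adult in vitro, 11.30 in d26 in vitro and 11.29 in d20 in vitro oocytes. The d26 in vivo arrays of Nlrp5, at 12.38 and 12.51, lay apart from the groups on both sides, while the last 4 groups overlapped. Ooep averaged 13.30 in GV, 10.22 in d26 in vivo, 10.13 in adult in vivo, 9.77 in adult in vitro, 9.12 in d26 in vitro and 8.77 in d20 in vitro oocytes. Of these Ooep neighbours, d26 and adult in vivo overlapped, as did d26 and d20 in vitro, while the others did not. As deposited, Ooep also overlapped between adult in vivo and adult in vitro, and between adult in vitro and d26 in vitro oocytes. How many of all probe sets separate between such small groups was not counted, here and for the members below.

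Tle6 averaged 12.47 in GV, 9.94 in d26 in vivo, 9.90 in d20 in vitro, 9.35 in adult in vivo, 9.08 in d26 in vitro and 8.22 in adult in vitro oocytes, and each neighbouring pair of MII groups overlapped. Padi6 averaged 12.30 in GV, 8.67 in d20 in vitro, 8.49 in d26 in vivo, 7.91 in d26 in vitro, 6.97 in adult in vitro and 6.78 in adult in vivo oocytes, and only the d26 and adult in vitro neighbours did not overlap among the MII groups. Khdc3 averaged 7.99 in GV, 6.34 in adult in vitro, 6.17 in d26 in vivo, 5.91 in d20 in vitro, 4.89 in d26 in vitro and 4.83 in adult in vivo oocytes, with all MII neighbours overlapping. As deposited, the d26 and adult in vitro neighbours of Padi6 overlapped as well. Tle6, Padi6 and Khdc3 thus lay lower at MII than in GV oocytes but gave no firm order among the MII groups.

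Zar1 averaged 12.81 in GV, 12.55 in d20 in vitro, 12.18 in d26 in vivo, 12.14 in d26 in vitro, 11.82 in adult in vivo and 11.62 in adult in vitro oocytes, and only the d20 in vitro and d26 in vivo neighbours did not overlap. Dppa3 averaged 12.92 in d26 in vitro, 12.73 in adult in vitro, 12.60 in d26 in vivo, 12.27 in d20 in vitro, 12.19 in GV and 12.11 in adult in vivo oocytes, with every neighbouring pair overlapping. Dppa3 was the only one of the 7 genes with a single probe set whose GV mean was not the highest.

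Likeness of pattern was measured as the root mean square difference of mean-centred normalized log2 values over the 15 arrays, where 0 means identical patterns. For Ooep the nearest genes were Ube2a (0.312) and Sec23ip (0.323), for Nlrp5 Scfd1 (0.264) and Egfr (0.292), for Tle6 Lpin2 (0.411) and Cpeb1 (0.431), and for Padi6 Pgs1 (0.443) and Pik3cd (0.531). For Khdc3 they were Gemin8 (0.441) and Dnajb2 (0.516), for Zar1 Tsc22d1 (0.277) and Nfyc (0.278), for Dppa3 Arhgap20os (0.187) and Pcna (0.207), and for the brightest Zbed3 probe set Unc50 (0.0597) and Ern1 (0.0929). No member was among the 2 genes nearest to another member. Between members the smallest differences were those of the brightest Zbed3 probe set, at 0.502 with Dppa3, 0.612 with Zar1 and 0.753 with Nlrp5. That of Nlrp5 and Zar1 followed at 0.779. The difference was 0.848 for Padi6 and Tle6, 0.858 for Nlrp5 and Ooep, and 2.15 for Dppa3 and Padi6, the least alike pair. The measure favours genes that vary little, and the arrays share their scaling and brightness.

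The next question was whether maturation in vivo and in vitro left MII oocytes with different member levels. In adults no member probe set passed, and none had an unadjusted p below 0.05, where limma called 0.00444% of all probe sets, which is 1 probe set, and 1801 had an unadjusted p below 0.05. The in vivo minus in vitro difference was 0.17 for Nlrp5 (95% interval -0.42 to 0.76, limma adjusted p = 0.859), 0.35 for Ooep (-0.16 to 0.87, adjusted p = 0.683), 1.13 for Tle6 (-0.11 to 2.38, adjusted p = 0.645) and -1.51 for Khdc3 (-3.28 to 0.25, adjusted p = 0.649). These intervals leave room for differences of the size of their bounds, above 2 log2 units for Tle6. The Khdc3 difference was -0.54 without adult in vivo replicate 1, whose normalized level of 2.89 was the lowest, and that of Tle6 was 0.71 without adult in vivo replicate 2 and 0.64 without adult in vitro replicate 2. The difference of Nlrp5 was 0.02 without adult in vivo replicate 1 and 0.31 without replicate 3. Leukocyte markers moved with this comparison, with all 6 measured and summed deposited intensities of 243 to 430 in adult in vivo arrays, against 35.8 to 75.3 in adult in vitro arrays. The oviduct markers did too, at 90.1 to 613 against 7.91 to 29.5, and their part in the member values was not tested.

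At d26 no member passed after adjustment either. Ooep had deposited intensities of 1101 and 1982 in d26 in vivo MII oocytes, against 515, 201 and 201 in d26 in vitro MII oocytes. Nlrp5 had 5477 and 7412 in vivo, against 2071, 1147 and 1203 in vitro. For Ooep and Nlrp5 every in vivo array lay above every in vitro array, both as deposited and after normalization. Khdc3 separated in this direction after normalization alone, and Zbed3 1453848_s_at as deposited alone. As deposited, the median difference of all tested probe sets was 1.11, in the same direction. How many of all probe sets separate in this way was not counted. The normalized difference was 1.10 for Ooep (SE 0.24, 95% interval 0.59 to 1.61, limma adjusted p = 0.146) and 1.14 for Nlrp5 (SE 0.28, 95% interval 0.56 to 1.73, adjusted p = 0.236), with unadjusted p-values of 0.000389 and 0.00091. These were the 2 of 10 member probe sets with an unadjusted p below 0.05, beside 1531 of all 22519, and limma called 0.04% of all probe sets.

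Tle6 and Khdc3 differed by 0.85 (95% interval -0.39 to 2.10, limma adjusted p = 0.803) and 1.28 (-0.48 to 3.04, adjusted p = 0.794) at d26, with wide intervals. The Tle6 difference was 0.07 without d26 in vivo replicate 2, 1.64 without in vivo replicate 1 and 0.55 without d26 in vitro replicate 2, and that of Khdc3 was 0.60 without d26 in vitro replicate 2. Without the 4 dim arrays, which include d26 in vitro replicates 2 and 3, the differences were 1.41 for Ooep (adjusted p = 0.0545) and 1.57 for Nlrp5 (adjusted p = 0.0802), resting on 1 in vitro array that is assumed to vary like the other groups. The ratio of the 3' to the 5' Gapdh control probe set, a sign of RNA and amplification quality, was 82.3 and 68.0 on the d26 in vivo arrays, against 12.6, 16.5 and 26.8 on the d26 in vitro arrays. The 5' intensities were 0.76 and 3.99 on the d26 in vivo arrays, against 22.8, 0.895 and 1.89 on the d26 in vitro arrays. Most were thus very low, which makes the ratio imprecise. The part of this ratio in the member values was not tested.

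The dependence of the maturation difference on age was tested as the adult difference minus the d26 difference. It was -0.97 for Nlrp5 (95% interval -1.81 to -0.14, unadjusted p = 0.0251), -0.74 for Ooep (-1.47 to -0.02, unadjusted p = 0.0452) and -2.79 for Khdc3 (-5.29 to -0.30, unadjusted p = 0.0307), each with a limma adjusted p of 1. No member passed, and limma called 0% of all probe sets, of which 840 had an unadjusted p below 0.05. The Khdc3 value was -1.82 without adult in vivo replicate 1. The maturation difference in Nlrp5, Ooep and Khdc3 was thus not shown to depend on age.

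**Figure D5:**
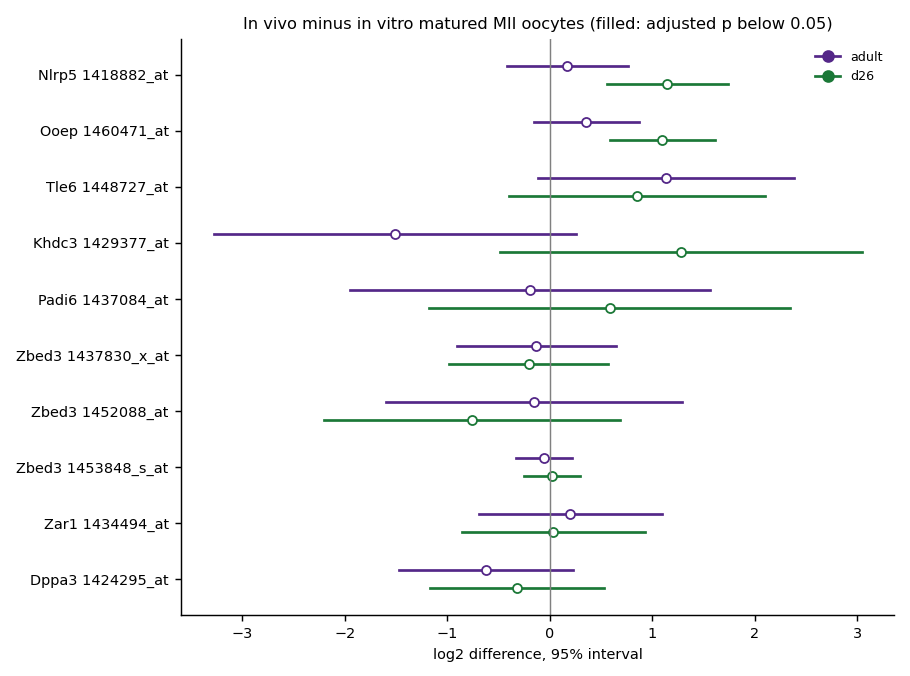
In vivo minus in vitro differences of MII oocytes in normalized log2 intensity (horizontal axis), with 95% intervals, for the 10 tested member probe sets in adults and at d26. All points are open because none has an adjusted p below 0.05, and the d26 intervals of Nlrp5 and Ooep, at 1.14 and 1.10, do not include 0.

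The last question was whether in vitro matured MII oocytes differed with the age of the female. Ooep had deposited intensities of 737, 601 and 729 at d20, 515, 201 and 201 at d26, and 799.9 and 285 in adults. Its normalized levels averaged 8.77 ± 0.12 at d20 (SD, n = 3), 9.12 ± 0.31 at d26 (SD, n = 3) and 9.77 ± 0.03 in adults (SD, n = 2). The order of Ooep across the ages thus depended on the scale. Between adults and d20 its normalized difference was 1.00 (SE 0.24, 95% interval 0.49 to 1.52, limma adjusted p = 0.118), but -0.52 as deposited. Its other differences were 0.65 between adults and d26 (0.14 to 1.16, adjusted p = 0.592) and 0.36 between d26 and d20 (-0.10 to 0.81, adjusted p = 0.506), the last 0.20 without d26 in vitro replicate 2.

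Tle6 had deposited intensities of 2362, 854 and 1471 at d20, 875, 92.3 and 211 at d26, and 361 and 59.2 in adults. Both adult values lay below every d20 value. The normalized difference between adults and d20 was -1.68 for Tle6 (95% interval -2.92 to -0.43, limma adjusted p = 0.199), -1.70 for Padi6 (-3.46 to 0.06, adjusted p = 0.297) and -0.93 for Zar1 (-1.82 to -0.03, adjusted p = 0.27). The groups of Tle6, Padi6 and Zar1 did not overlap on either scale, with the adult values lower, but the tests did not pass. The untested Zbed3 1437097_at was also lower on both scales. After normalization Ooep, Khdc3 and Zbed3 1453848_s_at separated the other way. As deposited, the median difference of all tested probe sets was -1.32, also lower in adults. How many of all probe sets separate in this way was not counted, so the separation is no result about the members. The Tle6 difference was -0.86 between adults and d26 (-2.11 to 0.38, adjusted p = 0.785) and -0.81 between d26 and d20 (-1.93 to 0.30, adjusted p = 0.525). The first of these was -1.36 without adult in vitro replicate 1 and -0.37 without replicate 2, and the second -0.51 without d26 in vitro replicate 2 and -0.41 without d20 in vitro replicate 1.

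No member passed in any of the 3 age comparisons by limma. Of all tested probe sets, 0.0222% were called between adults and d20 (0.00444% higher and 0.0178% lower), 0.00444% between adults and d26, all lower, and 0% between d26 and d20. Members with an unadjusted p below 0.05 numbered 3 between adults and d20 (Ooep, Tle6 and Zar1), 1 between adults and d26 (Ooep) and 0 between d26 and d20, beside 3971, 1654 and 2581 of all probe sets. These 3 comparisons share arrays with one another and with the maturation comparisons.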

How the data were processed

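The deposited values were 1-colour Affymetrix intensities on a linear scale, made by the authors with MAS5, per the submitters' processing notes, which as used here name neither a version nor a scaling target. They ran from 0.0425 to 21563, with no missing value. The 64 control probe sets were left out, log2 intensities were quantile normalized over 15 arrays, and the upper 50% of probe sets by mean (22519, at least 3.07) were tested. The filter used the mean over all groups. limma 3.58.1 in R 4.3.3 fitted 6 group means with an intensity trend and 9 residual degrees of freedom. Benjamini-Hochberg adjustment ran within each of 8 comparisons, and calls had an adjusted p below 0.05. The number of arrays limits the precision. The fit was also run on simulated arrays with independent noise and no differences in brightness, so that run did not test the scaling.

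Probe sets were named by the platform annotation, in which 34958 had 1 symbol, 932 several and 9211 none, and 34754 symbols were updated by gene identifier. The member genes and all lists were chosen with earlier results of these data known. Every member probe set was reported, with up to 4 genes of the wider maternal effect list per comparison (the 2 largest rises and falls that passed) and the 2 nearest genes in pattern. A gene was represented by its brightest probe set.

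Alternatives were the values as deposited, median scaling, no filter, the upper 30% of probe sets, a pseudocount of 1.12 (the 10th percentile of intensities), compared arrays alone, no trend, array weights, no dim arrays, the number in the sample titles (up to 12 or above, its meaning unknown) as a block, and leaving out each array. No 2 arrays shared more than 0.00222% of values.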

Additional observations from a re-analysis of the deposited data

How the results depend on the processing

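The 8 counts of member calls stayed within 1.5 times of the reported ones under the 10 alternatives and without each of the 15 arrays: 4 to 7 called after maturation in vivo and 4 to 7 after maturation in vitro against GV, and 0 in the 6 other comparisons. Differences of Nlrp5 from GV ran from -1.83 to -1.03 in vivo (adjusted p up to 0.0353) and -2.77 to -1.36 in vitro, and the calls on Ooep, Tle6 and Padi6 held throughout. Among the differences given in the report, signs turned only where no call stood, except for Zbed3 1437830_x_at in vitro as deposited (-0.23). Of the same differences, the others that turned as deposited were Zbed3 1452088_at in vivo (-1.19) and in vitro (-1.94), Zbed3 1453848_s_at in vitro (-0.11), Dppa3 in vitro (-0.34), and Ooep between adults and d20 (-0.52) and between d26 and d20 (-1.32). Median scaling turned Dppa3 in vivo (0.39), Zbed3 1452088_at (-0.41 in vivo, -0.52 in vitro) and Ooep between d26 and d20 (-0.29). Leaving out 4 dim arrays turned Zbed3 1452088_at in vitro (-0.62), and array weights turned Nlrp5 between adult in vivo and in vitro MII (-0.0047). Leaving out 1 array at a time gave Dppa3 in vivo -0.50 to 0.35 and Zbed3 1452088_at in vitro -0.62 to 2.03. The causes were not tested.

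Over all 22519 probe sets, calls against GV numbered 3542 higher and 2495 lower in vivo and 3607 and 2641 in vitro. As deposited they numbered 23 and 3481 in vivo and 11 and 6224 in vitro, after median scaling 1205 and 3876, and 1315 and 4468. With array weights they numbered 6138 and 4153 in vivo. Without GV replicate 2, the in vivo counts were 1892 and 1416, those in vitro 2255 and 1540. Without GV replicate 1, the in vivo counts were 2302 and 1511 and the in vitro counts 2544 and 1631. No paired analysis was possible because the replicate numbers only follow the order of the records. The 2 or 3 arrays a group limit the precision, most for dim signals such as Khdc3 at MII, where the SE was 0.83 in vivo.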
